A study of Mus musculus with 8 samples.

Results

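The Ms4a genes encode small membrane proteins of the family that includes CD20, and 8 of them, Ms4a3, Ms4a4b, Ms4a4c, Ms4a6b, Ms4a6c, Ms4a6d, Ms4a7 and Ms4a8a, were followed here in mouse lung. They were chosen by name after the difference between the groups had been measured in these same libraries, so their difference between the groups is a description and carries no test. All 8 were found among the 39290 gene names of the table, each on 1 row, and 7 of them passed the filter (an average across the 8 libraries of 1 FPKM or more), as did 14418 genes in all. FPKM scales the fragments of a gene by its transcript length and by the size of the library. Levels can therefore be compared between genes, except where reads fit more than 1 gene, as described below for Ms4a6c.

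The lung RNA sequencing data comprised 8 libraries: 4 bore the title model and 4 the title high dose. The series title names Platycodin D, a saponin of the root of Platycodon, and mice with idiopathic pulmonary fibrosis, in which lung tissue is replaced by scar. Both groups are therefore taken as the fibrosis model, and the second as treated. The sources used here do not give how the fibrosis was made, the dose, the strain, the age or untreated animals. Every library carries the label lung tissue and also that of MLF, mouse lung fibroblasts. Markers of alveolar epithelium, endothelium and blood cells were present in both groups, and the 8 alveolar type 2 cell markers summed to 10723 to 15926 FPKM in the model group and 14394 to 20885 in the high dose group. A fibroblast line would not express most of them, so the libraries are treated as lung tissue. The codes in the library descriptions have initials that would fit the opposite assignment of the titles, and every direction below would turn if the titles were exchanged. Whether the libraries of a group are separate animals is not in the labels, so the p-values below measure a spread between libraries that may be technical. The read depth was unknown, since the table holds no counts.

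MS4A proteins cross the cell membrane several times with both ends inside the cell, and several of them associate with receptors and alter their signalling. Most of the genes lie side by side in 1 cluster on mouse chromosome 19, and each is used by a limited set of blood cells. Ms4a1 is CD20 of B cells and Ms4a2 is the beta chain of the high-affinity IgE receptor of mast cells. Ms4a3 marks progenitors of granulocytes and monocytes in mouse bone marrow. Ms4a4b is known from T cells and natural killer cells, where it modulates T cell proliferation, and both it and Ms4a6b have been linked to the co-stimulatory receptor GITR (Tnfrsf18). Ms4a6c and Ms4a6d are known from monocytes and macrophages, Ms4a7 from tissue macrophages, and Ms4a8a from alternatively activated macrophages.

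Some of the members are similar in sequence, which bears on how reads can be assigned to them. The longest coding stretches shared between members are shown for that reason. The coding sequences of Ms4a4b and Ms4a4c (GENCODE M21 on GRCm38) were identical at 91.8% of the positions of their alignment, gaps counted. Those of Ms4a6b and Ms4a6d were at 79.9% and those of Ms4a6b and Ms4a6c at 73.9%. Over paired bases alone the values were 91.8%, 81.3% and 85.3%, so the order of the last pairs turned. Pairs that included Ms4a3, Ms4a7 or Ms4a8a were at most 51.3% identical with gaps counted and at most 67% over paired bases. The longest identical stretch of the first pair was 127 bases long and began at base 321 of both coding sequences. That of Ms4a6b and Ms4a6d was 81 bases long and began at base 100 of both.
Ms4a4b and Ms4a4c, shared coding stretch: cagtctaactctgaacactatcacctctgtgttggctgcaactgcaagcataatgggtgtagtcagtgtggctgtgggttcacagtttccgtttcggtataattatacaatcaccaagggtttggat
Ms4a6b and Ms4a6d, shared coding stretch: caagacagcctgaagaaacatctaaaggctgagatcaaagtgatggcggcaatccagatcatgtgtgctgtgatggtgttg

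Of the transcript stretches of 50 bases, 8.48% of those of Ms4a4c and 4.19% of those of Ms4a4b also occurred in a transcript of another gene, mostly in the other of the pair. The shares were 5.89% for Ms4a6b, 2.92% for Ms4a6d and 0% for Ms4a3, Ms4a7 and Ms4a8a. Ms4a6c stood apart at 56.9%, and 993 of its 1792 stretches were also in BE692007, a long non-coding RNA gene. At 100 bases the shares were 51.3% for Ms4a6c, 1.72% for Ms4a4c and 0.882% for Ms4a4b. How the authors assigned fragments that fit more than 1 gene was not stated in the sources at hand, so the level of Ms4a6c in particular is uncertain. BE692007, named after its values were seen, had 11.5, 5.54, 9.70 and 10.8 FPKM in the model group and 5.85, 3.46, 4.35 and 4.16 in the high dose group. Its log2 fold change was -0.90 ± 0.22 (SE, adjusted p = 0.0319 by limma), lower in the high dose libraries, and the ranges of the groups overlapped. Of the fits without single libraries, it was called only in those without model replicate 2 and without high dose replicate 1.

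The promoters of Ms4a4b and Ms4a4c, the pair with the most similar coding sequences, are shown side by side. Whether likeness of promoters bears on the difference between the groups was not tested. RefSeq windows (GRCm38.p6) of 250 bases before and 50 bases after the start were matched for 7 of the 8 members, with 8 windows in all, and Ms4a6d had none. Over the 250 bases before the start, Ms4a4b and Ms4a4c were identical at 68.8% of the 269 positions of their alignment, gaps counted. Any other pair compared was at most 47.7% identical by this measure, but gaps lower it where windows are alike and shifted. Ms4a6b and Ms4a6c had 149 identical positions in an alignment of 325, or 45.8%. Their longest shared run was 48 bases, against 20 for Ms4a4b and Ms4a4c, so the measure does not single out the latter pair. The 250 bases before the start sites follow, 5′ to 3′ on the plus strand, with GAGGAA, the core bound by the myeloid and B cell factor PU.1, in capitals.
Ms4a4b, chr19:11443308-11443557: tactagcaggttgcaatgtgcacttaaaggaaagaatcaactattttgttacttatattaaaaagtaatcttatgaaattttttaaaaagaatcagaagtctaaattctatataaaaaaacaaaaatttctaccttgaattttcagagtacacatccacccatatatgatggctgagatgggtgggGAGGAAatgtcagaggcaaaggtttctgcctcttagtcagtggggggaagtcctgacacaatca
Ms4a4c, chr19:11407411-11407660: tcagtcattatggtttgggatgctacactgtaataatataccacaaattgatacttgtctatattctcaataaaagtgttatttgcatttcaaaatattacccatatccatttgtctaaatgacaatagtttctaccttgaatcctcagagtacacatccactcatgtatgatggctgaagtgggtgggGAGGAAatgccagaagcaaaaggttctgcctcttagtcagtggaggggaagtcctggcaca
Ms4a6b and Ms4a6c, shared promoter stretch: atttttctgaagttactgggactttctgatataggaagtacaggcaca

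The GAGGAA began 64 bases before the start of Ms4a4b and 61 bases before that of Ms4a4c. The stretch of 48 bases shared by Ms4a6b and Ms4a6c began 118 and 49 bases before their starts. Both strands were searched. GAGGAA was in 4 of the 8 windows of the members and in 28.3% of the 32851 windows of the table. Besides those of Ms4a4b and Ms4a4c, its matches were after the starts of Ms4a3 and Ms4a7. Ms4a6b, Ms4a6c and Ms4a8a had none. TTNNGNAA, a pattern of C/EBP factors, was in 8 of 8 windows and in 40.7% of the table. TTCNNNGAA, the interferon gamma activated site, was in 0 of 8 windows and in 8.3% of the table. The interferon-stimulated response element, searched as GAAA and GAAA with 2 bases of any kind between them, was in 0 of 8 and in 3.44%. These are matches of letters in short windows and say nothing about binding.

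Among the monocyte and macrophage members, Ms4a6c had the highest mean level. Its values were 47.2, 24.8, 62.2 and 71.4 FPKM in model replicates 1 to 4 and 18.1, 13.5, 12.4 and 13.3 in high dose replicates 1 to 4. All 4 model libraries were above all 4 high dose libraries, and the second model library was nearest to them. The means were 51.4 ± 20.4 and 14.3 ± 2.59 FPKM (SD, n = 4 each), a ratio of 3.59. The fold change of high dose over model was -1.69 ± 0.30 (SE) as log2(FPKM + 1), a scale on which the added 1 shrinks the changes of low genes. Here and below, where the groups share tissue, fewer cells of a type and less RNA per cell cannot be told apart.

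Ms4a6b followed the same order of model libraries. It had 45.9, 22.5, 50.6 and 57.1 FPKM in the model group and 16.6, 11.8, 13.3 and 13.8 in the high dose group. The groups did not overlap, with means of 44.0 ± 15.1 and 13.9 ± 1.99 FPKM and a log2 fold change of -1.53 ± 0.26. Ms4a6c stayed close to Ms4a6b within each library, at 1.03 to 1.25 times its FPKM in the model group and 0.932 to 1.14 times in the high dose group.

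Ms4a6d, the third of this subgroup, varied more. Its values were 21.0, 12.1, 35.0 and 55.5 FPKM in the model group and 18.1, 6.41, 11.5 and 10.1 in the high dose group. The highest high dose library lay above the lowest model library, so the groups overlapped. The highest model library had 4.60 times the level of the lowest, the widest such ratio among the 7 members that passed the filter. The means were 30.9 ± 18.9 and 11.5 ± 4.87 FPKM, with a log2 fold change of -1.23 ± 0.46.

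Ms4a7, the gene of tissue macrophages, was at like mean levels in the groups. It had 4.72, 4.25, 6.99 and 14.3 FPKM in the model group and 11.8, 4.72, 4.33 and 8.66 in the high dose group. The groups overlapped over nearly their whole range, the means were 7.58 ± 4.67 and 7.37 ± 3.52 FPKM, and the log2 fold change was 0.01 ± 0.40. Its direction was not settled: the value went from -0.23 to 0.33 when single libraries were left out, and was below 0 with quantile normalization and with median centring. Relative to Ms4a6c in the same library, Ms4a7 was at 0.0999 to 0.201 in the model group and at 0.350 to 0.651 in the high dose group.

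Ms4a8a had 8.56, 6.07, 16.0 and 17.3 FPKM in the model group and 8.39, 5.17, 7.11 and 4.64 in the high dose group. Model replicates 3 and 4 were above the other 6 libraries, and the ranges of the groups overlapped. The means were 12.0 ± 5.51 and 6.33 ± 1.74 FPKM, with a log2 fold change of -0.75 ± 0.32.

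The progenitor gene Ms4a3 was near the lower end of what the table lists, at 0.569, 0.614, 0.425 and 0.591 FPKM in the model group and 0.0800, 0, 0 and 0.0703 in the high dose group. All model libraries were above all high dose libraries, of which 2 were listed at 0. Its mean over the 8 libraries was 0.294 FPKM, under the filter, so it had no place in the comparison across genes.

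Of the members of the Ms4a4 subgroup, Ms4a4b had 34.3, 23.9, 58.4 and 34.5 FPKM in the model group and 17.8, 16.4, 16.1 and 19.9 in the high dose group. The groups did not overlap, model replicate 3 was far above the others, and the high dose libraries lay close together. The means were 37.7 ± 14.6 and 17.5 ± 1.74 FPKM, a ratio of 2.15, and the log2 fold change was -1.00 ± 0.23. Ms4a4c, its nearest copy, had 27.4, 15.8, 29.1 and 36.9 FPKM in the model group and 6.80, 7.57, 6.12 and 7.62 in the high dose group. The gap between its groups was wide, with means of 27.3 ± 8.70 and 7.03 ± 0.712 FPKM, a ratio of 3.88, and the log2 fold change was -1.76 ± 0.22, the most negative of the 7. The ratio of Ms4a4b to Ms4a4c was 0.934 to 2.01 in the model group and 2.16 to 2.64 in the high dose group.

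**Figure D1:**
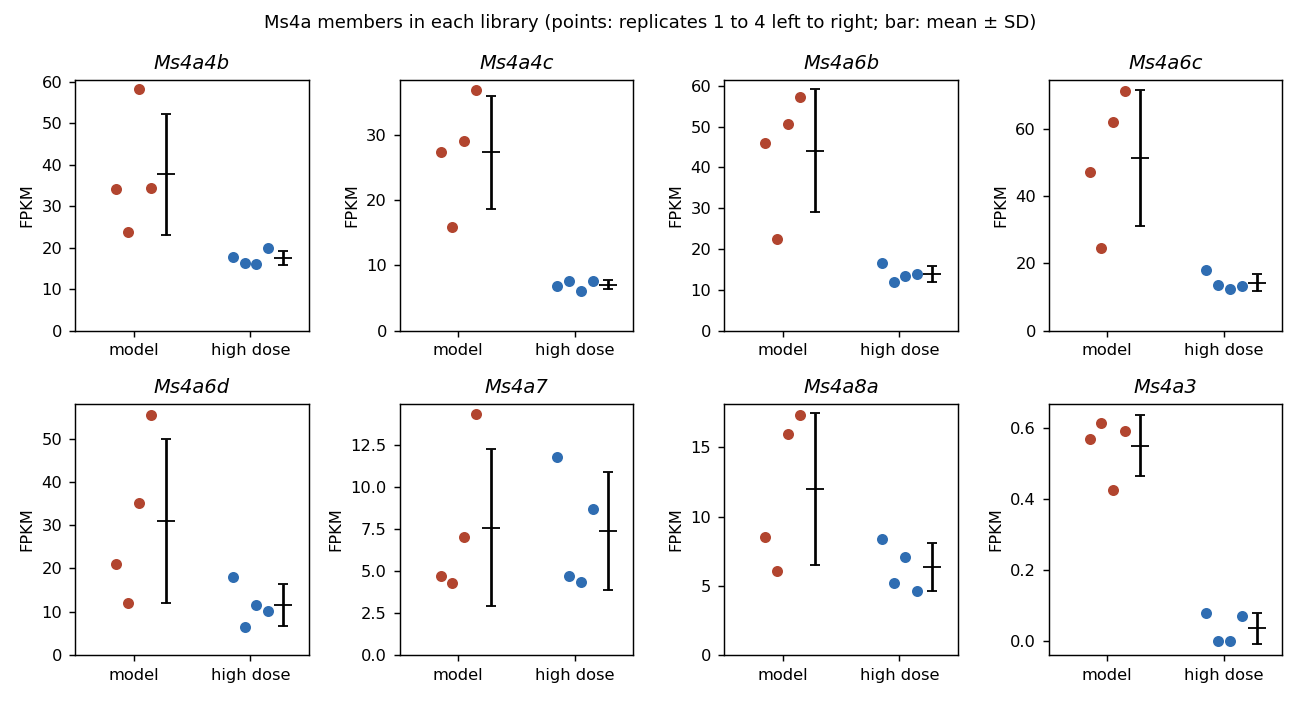
FPKM of the 8 Ms4a members in each library (points) with the group mean and SD (n = 4 each), model and high dose side by side. The groups do not overlap for Ms4a3, Ms4a4b, Ms4a4c, Ms4a6b and Ms4a6c, overlap for Ms4a6d and Ms4a8a, and have like means for Ms4a7.

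Across the members, 4 of the 7 that passed the filter were called lower in the high dose libraries (limma, adjusted p under 0.05 over all 14418 genes), 0 were called higher and 3 were not called. Over all genes 4.27% were called lower and 5.86% higher. The members were chosen on this contrast, so nothing is read from that count. The 4 called were Ms4a4b, Ms4a4c, Ms4a6b and Ms4a6c. The groups did not overlap, with high dose lower, for the same 4 of 7, and for 5 of all 8 with Ms4a3, against 6.46% of all genes lower and 11.3% higher. The median log2 fold change was -1.23 for the 7 members and 0.04 for all genes. The calls of Ms4a4c, Ms4a6b and Ms4a6c were made in each of the 8 fits that left out 1 library, with log2 fold changes of -1.99 to -1.60, -1.82 to -1.38 and -1.99 to -1.50. That of Ms4a4b was made only without model replicate 2 or 3, and ranged from -1.18 to -0.77. Ms4a6d and Ms4a8a were called only without model replicate 2.

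The order of the mean levels in the model libraries was Ms4a6c, Ms4a6b, Ms4a4b, Ms4a6d, Ms4a4c, Ms4a8a, Ms4a7 and Ms4a3, from high to low. Neighbours among the first 5 differed by less than the SD of either. Ms4a8a and Ms4a7 overlapped in range but held places 6 and 7 in every model library, and Ms4a6c held place 1 in every one. The place and share of Ms4a6c are uncertain because of the stretches it shares with BE692007. In the high dose libraries the order was Ms4a4b, Ms4a6c, Ms4a6b, Ms4a6d, Ms4a7, Ms4a4c, Ms4a8a and Ms4a3. There the ranges of all neighbours down to Ms4a8a overlapped, and only Ms4a3 lay clear of its neighbour. As a share of the FPKM summed over the 8 members, Ms4a6c was at 24.1% ± 1.10 in the model group and 18.4% ± 1.57 in the high dose group (SD, n = 4 each). Ms4a4c was at 13.2% ± 1.51 and 9.23% ± 1.93, Ms4a4b at 18.6% ± 4.81 and 22.9% ± 3.34, and Ms4a7 at 3.51% ± 1.16 and 9.11% ± 2.90. Ms4a7 had a larger share in the high dose libraries, where its mean level was alike and the sum was lower. The members were chosen on this contrast, so nothing more is read from the shares.

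The members also differed among the libraries of 1 group. Their summed level was 190, 109.9, 259 and 288 FPKM in model replicates 1 to 4 and 97.6, 65.5, 70.9 and 78.1 FPKM in high dose replicates 1 to 4. Model replicate 2 was the lowest model library for 7 of the 7 members that passed the filter, and model replicate 4 the highest for 6, with Ms4a4b the exception. The median deviation of the 7 from their group mean on the log2 scale was -0.77 in model replicate 2 and 0.57 in model replicate 4, while the median over all genes was between -0.03 and 0.03 in every library. High dose replicate 1 was the highest high dose library for 5 members and high dose replicate 4 for the other 2.

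**Figure D2:**
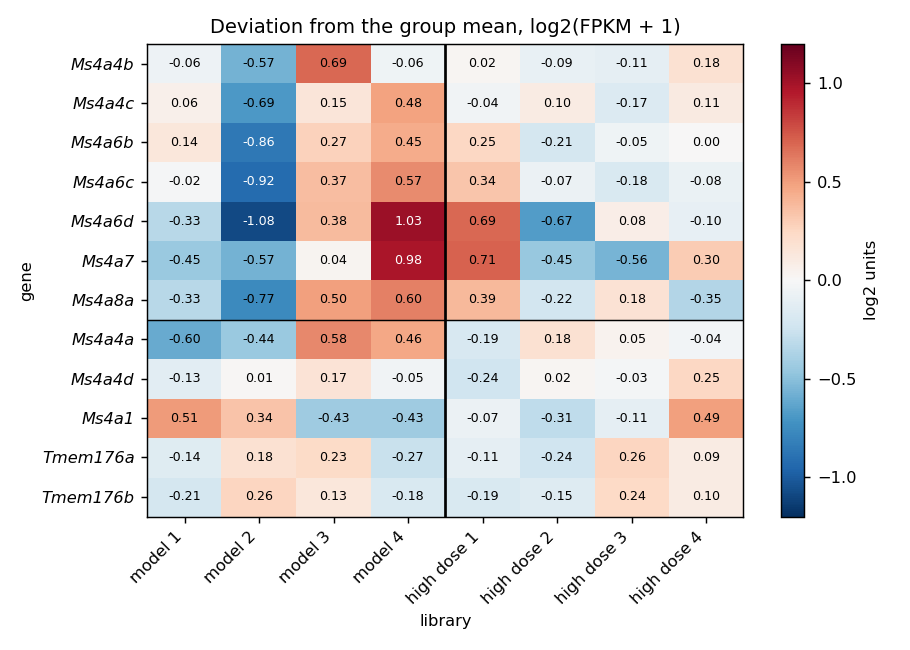
Deviation of log2(FPKM + 1) from the group mean for the 7 members that passed the filter (above the line) and 5 other family genes (below it), by library, red above and blue below the mean. Model replicate 2 is below its group mean for all 7, and model replicate 4 is above it for all except Ms4a4b.

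Within the groups, the members' deviations moved together to different degrees. Over the 8 libraries, and as a description since the libraries share whatever sets them apart, Pearson's r of the deviations was 0.97 for Ms4a6b and Ms4a6c, 0.93 for Ms4a6d and Ms4a8a, and 0.90 for Ms4a4c and Ms4a6c. The lowest of the 21 pairs was Ms4a4b and Ms4a7 at 0.33. Ms4a4b and Ms4a4c, the pair with the most similar sequence, were at 0.60.

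The genes with the most similar deviations, 2 for each member over the 8 libraries, are given as a description. They were sought among the genes that passed the filter. Left out were the members and genes named Gm with digits or with names ending in Rik. The highest of so many correlations over 8 libraries are high in any case. For Ms4a4b they were Ptpn22 (r = 0.99), a phosphatase that restrains T cell receptor signalling, and Skap1 (0.99), an adaptor of T cells. For Ms4a4c they were Rnf114 (1.00), a ubiquitin ligase, and AB124611 (0.98). For Ms4a6b they were H2-T22 (0.99), a non-classical MHC class I molecule, and Rgs19 (0.99), a regulator of G protein signalling. For Ms4a6c they were Ccdc88b (1.00) and the myosin Myo1f (0.99), both of blood cells. For Ms4a6d they were Cenpa (0.99), the centromeric histone, and Ripk1 (0.99), a kinase of cell death signalling. For Ms4a7 they were Ctss (0.99), the lysosomal protease cathepsin S, and Gpnmb (0.98), a membrane glycoprotein of macrophages. For Ms4a8a they were the phosphatase Ptpn1 (0.99) and the small GTPase Rab35 (0.99). The likeness was measured within groups, and the same genes did not all differ between them. H2-T22 had a log2 fold change of -1.38 ± 0.17 (adjusted p = 0.00404 by limma). Ptpn22, Rnf114 and AB124611 were also called lower (adjusted p = 0.0254, 0.0105 and 0.00601). The rest were not called, among them Ctss at -0.07 ± 0.45 (adjusted p = 0.945) and Rab35 at 0.06 ± 0.10 (adjusted p = 0.792).

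The other genes of the family went in both directions. Of 16 listed, including the relatives Tmem176a and Tmem176b, 15 were in the table, 10 of them under the filter and 2 of these, Ms4a12 and Ms4a13, at 0 in every library. The highest value among the 10 was 1.94 FPKM, for Ms4a14. Of the 5 tested, 1 was lower and 2 were higher in the high dose libraries. Ms4a4a, a macrophage gene whose protein associates with the fungal receptor Dectin-1, had 15.4, 17.3, 36.2 and 33.3 FPKM in the model group and 4.39, 5.95, 5.33 and 4.99 in the high dose group. The groups lay far apart. From 25.5 ± 10.7 FPKM it fell to 5.16 ± 0.653, which is -2.02 ± 0.27 on the log2 scale (adjusted p = 0.00471), larger in size than that of any member, and the adjusted p was 0.00228 to 0.0179 without single libraries.

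Tmem176a and Tmem176b, which encode cation channels of dendritic cells and macrophages, rose together. Tmem176a had 117, 147, 152 and 107 FPKM in the model group and 215, 197, 278 and 248 in the high dose group, with no overlap and a log2 fold change of 0.84 ± 0.15 (adjusted p = 0.0126). Tmem176b had 129 to 180 and 214 to 288 FPKM, with 0.70 ± 0.14 (adjusted p = 0.0195). Without model replicate 1, high dose replicate 3 or high dose replicate 4, in turn, Tmem176b was not called, with an adjusted p of at most 0.0563. Ms4a4d, a further copy of the Ms4a4 subgroup, had 25.2, 27.9, 31.2 and 26.8 FPKM in the model group and 17.3, 20.9, 20.2 and 24.6 in the high dose group. Its groups did not overlap, and its log2 fold change of -0.41 ± 0.11 missed the threshold (adjusted p = 0.0519) and passed it without high dose replicate 4 (0.0393). Ms4a1, CD20 of B cells, had 7.40, 6.45, 3.37 and 3.36 FPKM in the model group and 7.52, 6.25, 7.31 and 11.6 in the high dose group. It was not called, with a log2 fold change of 0.61 ± 0.26 (adjusted p = 0.182). Ms4a2 was under the filter at 0.609 ± 0.124 and 0.728 ± 0.0692 FPKM.

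Along chromosome 19, protein-coding genes were set in the order of RefSeq. The run of negative log2 fold changes that included the 4 called members began at Ms4a4a and ended at Ms4a6d. Between them lay Ms4a4c, Ms4a4b, Ms4a6c, Gm8369, Ms4a6b and Ms4a4d. Gm8369, between 2 of the called members, was at -0.14 ± 0.15 (adjusted p = 0.633), at 1.96 ± 0.540 and 1.66 ± 0.258 FPKM. Ms4a7, next to Ms4a4a on the other side, was at 0.01, and Ms4a1 further along at 0.61. Since the direction of Ms4a7 was not settled, neither was that end of the run. Of the 8 genes flanking the cluster, 4 on each side, 7 were not called, with log2 fold changes from -0.15 to 0.18, and Tmem132a was higher at 0.41 ± 0.11 (adjusted p = 0.0470), though of the fits without single libraries only that without model replicate 2 called it.

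**Figure D3:**
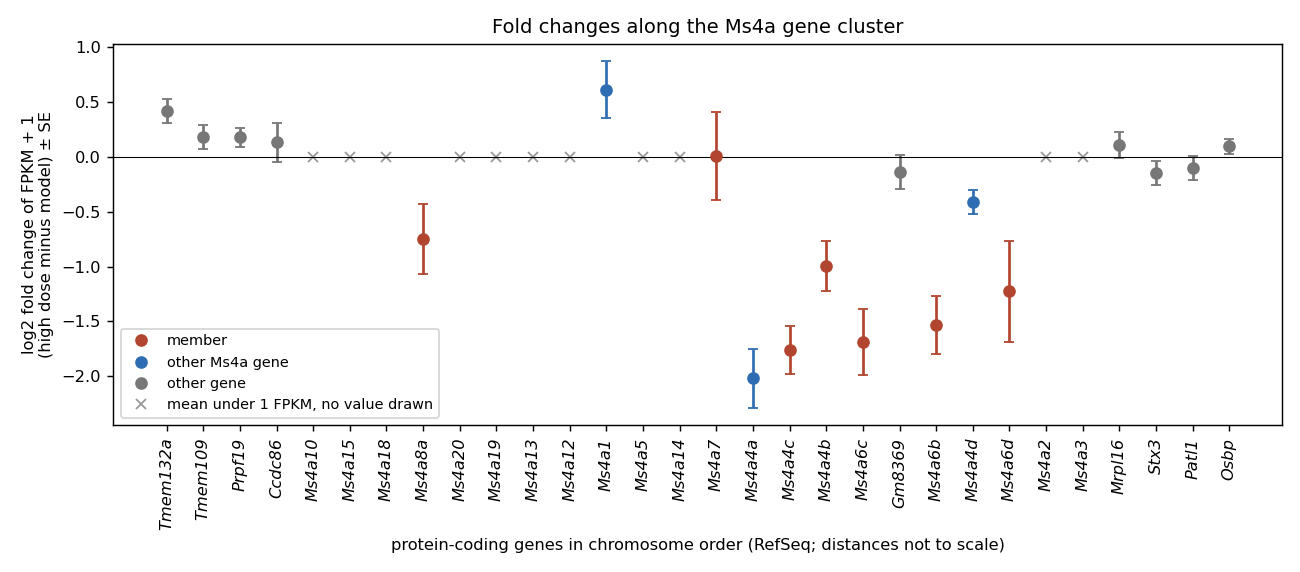
Log2 fold change, high dose over model, with SE, for the Ms4a cluster and 4 genes on each side in their order along chromosome 19, with members in red, other Ms4a genes in blue, other genes in grey and a cross where the mean was under 1 FPKM and no value is drawn. Ms4a4a, Ms4a4c, Ms4a4b, Ms4a6c and Ms4a6b are the genes called lower, from -2.02 to -1.00, and the 8 flanking genes lie between -0.15 and 0.41.

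Markers of the cells that use the members moved with them in part, and their part in the members' difference was not tested. In this paragraph and the next, the lists were counted over all genes tested. Of 10 classical monocyte markers, 6 were lower, 0 higher and 4 not called, with a median log2 fold change of -0.93 against 0.04 for all genes. Ly6c2, a surface antigen of these monocytes, fell from 122 ± 48.2 to 29.6 ± 3.37 FPKM (log2 change -1.90 ± 0.31 with an adjusted p of 0.00940). The summed level of the 10 markers was 4297 to 6009 FPKM in the model group and 4042 to 7402 in the high dose group, and without Lyz2, the most abundant, 537 to 1500 and 372 to 443. Of 10 patrolling monocyte markers, 4 were lower and 6 not called (median -0.96), and 2 were lower without model replicate 1, high dose replicate 3 or high dose replicate 4. They summed to 357 to 1126 and 294 to 588 FPKM. The receptor gene Treml4 was at -1.65 ± 0.24 (adjusted p = 0.00605). Nr4a1, Cx3cr1 and Ace of the same list were not called, at 0.84 ± 0.56, 0.29 ± 0.16 and 0.07 ± 0.08.

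Few macrophage and T cell markers were called. Of 14 markers of interstitial and recruited macrophages 0 were called in either direction, with a median of -0.00 and sums of 614 to 1571 and 796 to 1369 FPKM. Without model replicate 2, 2 were lower, and without high dose replicate 2, 1 was higher. C1qa, a complement subunit made by macrophages, had 71.4 ± 35.5 and 74.1 ± 24.6 FPKM (0.11 ± 0.35, adjusted p = 0.884). Of 11 alveolar macrophage markers, 1 was lower, 1 higher and 9 not called (median -0.06, sums of 233 to 282 and 251 to 281 FPKM), and the 1 that was lower, Krt79, was not called without model replicate 1. Of 15 T cell markers 0 were called in either direction (median -0.03, sums of 110.0 to 157 and 109 to 132 FPKM), although 2 were lower without model replicate 2. Cd3e, a chain of the T cell receptor complex, was at 6.64 ± 1.45 and 6.68 ± 0.580 FPKM. Cd8a, a co-receptor of cytotoxic T cells, was at 6.76 ± 1.02 and 4.85 ± 0.475 FPKM, with groups that did not overlap and -0.40 ± 0.12 (adjusted p = 0.0645). It was called lower without model replicate 2 (adjusted p = 0.0337), with quantile normalization and with median centring (0.0353 at the lowest). Of 6 regulatory and activated T cell markers 0 were called (median 0.01). With those under the filter, the 9 markers of this list summed to 11.6 to 18.7 and 13.7 to 18.9 FPKM.

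Natural killer and neutrophil markers were lower in the high dose libraries. Of 10 natural killer cell markers, 9 were lower and 1 not called (median -1.90), with sums of 138 to 719 FPKM in the model group and 37.0 to 56.2 in the high dose group. Gzma, a granule protease, fell from 281 ± 197 to 24.2 ± 6.69 FPKM (-3.21 ± 0.51, adjusted p = 0.00910), and the receptor gene Klre1 fell from 10.1 ± 4.38 to 1.87 ± 0.294 FPKM (-1.86 ± 0.27, adjusted p = 0.00623). Of 12 neutrophil markers, 10 were lower, 1 higher and 1 not called (median -2.38, sums of 1135 to 2920 and 161 to 502 FPKM). The 1 that was higher was Cd177, and of the fits without single libraries only that without high dose replicate 3 called it. Of 6 granulocyte precursor markers, the cells in which Ms4a3 is known, 3 were lower, 1 higher and 2 not called (median -1.19). Prtn3, a granule protease, fell from 5.77 ± 1.72 to 1.39 ± 0.342 FPKM (-1.47 ± 0.20, adjusted p = 0.00502), while Chil1, which other lung cells express too, rose from 246 ± 42.9 to 431 ± 38.4 FPKM (0.82 ± 0.14, adjusted p = 0.00940). Without model replicate 1, model replicate 3, high dose replicate 3 or high dose replicate 4, only 1 was lower, and without model replicate 2 or high dose replicate 1, 2 were higher. With those under the filter, the 9 markers of the list summed to 277 to 409 and 472 to 626 FPKM. Without Chil1 they summed to 78.7 to 112 and 36.5 to 192.

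In the lists of other cells the called genes were mostly higher. Of 10 dendritic cell markers 1 was higher (median 0.37), of 9 B cell and plasma cell markers 3 (0.74), of 8 alveolar type 1 cell markers 2 (0.33), of 8 alveolar type 2 cell markers 4 (0.54) and of 9 fibroblast markers 1 (0.47), with 0 lower in each. Of 8 endothelium markers (0.15) and 8 ciliated airway cell markers (0.19) 0 were called. Of 3 mast cell and basophil markers 2 were lower (-0.61). Those counts of the B cell, dendritic cell, alveolar type 2 cell, fibroblast and mast cell lists changed by more than 1.5 times when single libraries were left out: to 0 and 1 for the B cell list, 0 and 3 for the dendritic cell list, 1 and 2 for the alveolar type 2 cell list, 0 and 4 for the fibroblast list and 0 and 1 for the mast cell list. That of the endothelium list went to 1 without model replicate 2. With no filter on low values, the B cell and plasma cell genes Jchain, Fcer2a and Mzb1 were not called, nor were Lpcat1 and Napsa of alveolar type 2 cells, Postn of fibroblasts, or Cma1 and Gata2 of mast cells. With the replicate number as a block, Jchain and Cma1 were called and the other 6 of these genes were not.

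Genes induced by interferons were mostly lower in the high dose libraries. Of 17, 13 were lower, 0 higher and 4 not called, with a median log2 fold change of -1.72. Igtp, a GTPase induced by interferon gamma, fell from 182 ± 61.1 to 19.1 ± 1.93 FPKM (-3.13 ± 0.23, adjusted p = 0.00108), and Irf1, an interferon-induced transcription factor, from 167 ± 37.1 to 55.6 ± 2.05 FPKM (-1.54 ± 0.16, adjusted p = 0.00296). The summed level of the list was 1571, 812, 1542 and 2168 FPKM in model replicates 1 to 4 and 409, 297, 313 and 335 FPKM in high dose replicates 1 to 4. Its lowest and highest model libraries were those of the members' sum, replicates 2 and 4, and its highest and lowest high dose libraries, replicates 1 and 2, were also those of the members' sum.

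Partners of MS4A proteins were mostly not called. Of 8 tested, 1 was lower, 1 higher and 6 not called (median 0.03). Fcer1g, the gamma chain that signals for Fc receptors, fell from 182 ± 59.0 to 76.8 ± 13.8 FPKM (-1.19 ± 0.24, adjusted p = 0.0181) and was not called without model replicate 3 or high dose replicate 3. Cd81, a tetraspanin, rose from 105 ± 12.9 to 176 ± 4.34 FPKM (0.74 ± 0.10, adjusted p = 0.00458). GITR (Tnfrsf18) was at 4.68 ± 1.05 and 4.44 ± 0.399 FPKM (-0.05 ± 0.14, adjusted p = 0.873). Among 11 genes of alternative macrophage activation, the setting in which Ms4a8a was described, 3 were higher, 0 lower and 8 not called (median 0.11). They were Fn1 (1.39 ± 0.22, adjusted p = 0.00884), Mgl2 (0.87 ± 0.17, adjusted p = 0.0159) and Retnla (1.60 ± 0.34, adjusted p = 0.0234), which encode fibronectin, a C-type lectin and the secreted protein RELM alpha. Without model replicate 3 only Fn1 was called, and Retnla was also not called without model replicate 4 or high dose replicate 1. Mgl2 was also not called with the replicate number as a block or with only its row of highest mean. Its adjusted p was then at most 0.0886. Mrc1, Cd163, Chil3, Clec10a and Arg1 stand in this list and in a marker list.

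**Figure D4:**
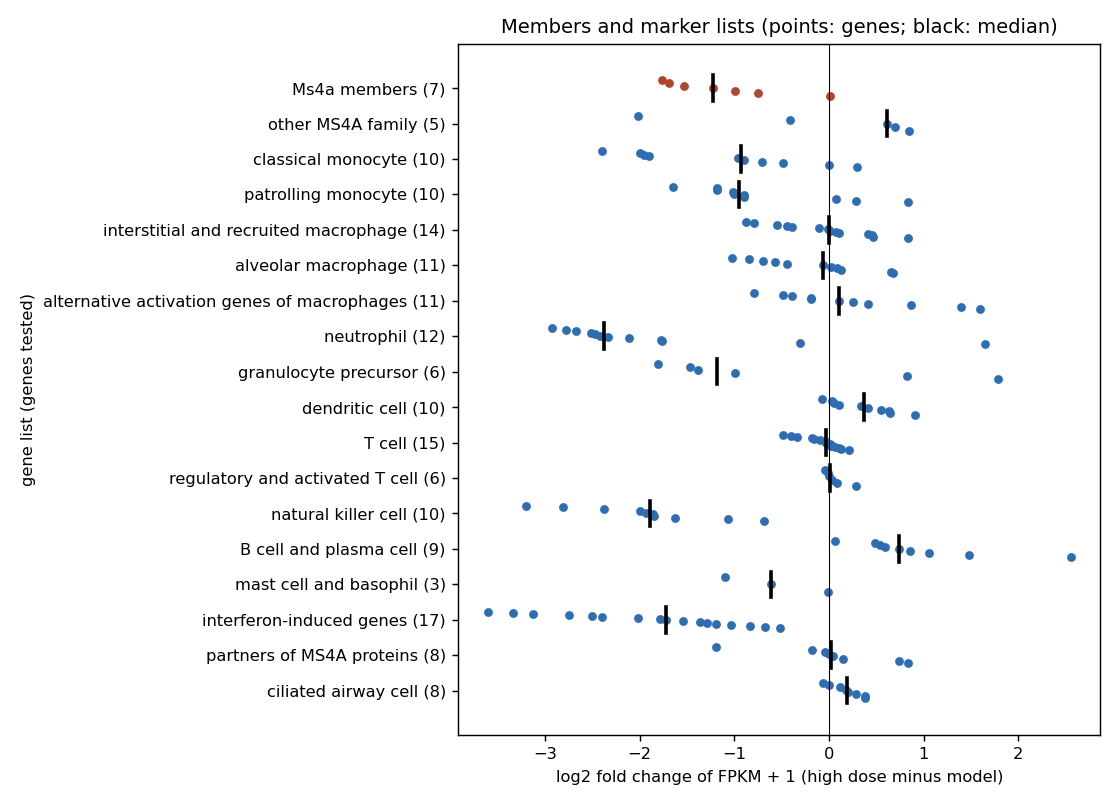
Log2 fold change, high dose over model, of each tested gene (points) in the members, in red, and in marker lists and other lists, in blue, with the median of each list as a black bar. The neutrophil, natural killer cell and interferon-induced lists lie furthest below 0, with medians of -2.38, -1.90 and -1.72, and the T cell and macrophage lists lie around 0.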

How the data were processed

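The authors deposited FPKM values of 8 lung RNA sequencing libraries (SMARTER mRNA-Seq kit, per the labels' protocols), in 1 table of 48632 rows in which each library has its own column. That the unit is FPKM was read from the numbers, since no header gives it. Per the submitters' processing notes the genome build was mm39. Aligner, quantification tool and annotation version are not given in the sources used here. Counts and depth were unknown, so precision rests on the spread between libraries.

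Rows were summed per gene name (41617 rows, 39290 names, while 7015 rows had none). The 14418 genes that averaged 1 FPKM or more were fitted as log2(FPKM + 1) by limma 3.58.1 (R 4.3.3). Group was the sole term, variances were moderated (trend, robust), and two-sided p-values were adjusted over all genes by the Benjamini-Hochberg method (threshold 0.05). The fit was tested on simulated data. Python 3.11.15 and matplotlib 3.10.9 were used for the rest.

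The members and the gene lists were chosen with earlier results of these data known. Genes named were the members, other family genes that passed the filter, up to 3 genes with the smallest p of a list, the 2 genes per member most alike in within-group deviations, and those marked otherwise. Cd3e, C1qa, Cd177, Nr4a1, Cx3cr1 and Ace were named as markers. Promoters came from RefSeq (GRCm38.p6) and coding sequences from GENCODE M21. Since the files' build was another, gene order was used but not gene coordinates. The protein sequences that were also to be shown were not used here. The alternatives tried were other scalings (quantile, median centring), plain variances, and other filters and pseudocounts. Further ones were only the row of highest mean per gene name in place of the sum, a replicate block, and fits without single libraries. Counts of the lists without single libraries were added after seeing the data.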

Additional observations from a re-analysis of the deposited data

Results flagged for a closer look

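In 4 of 146 groups of 4 libraries screened, 1 library lay far from the other 3 by Dixon's test at the 95% level, where chance gives about 1 in 20 groups, and none of the 4 was a Ms4a member. Fscn1, a dendritic cell marker, was at 5.86 FPKM in model replicate 1 against 9.60 to 9.86 in the other model libraries. Jchain, the joining chain of secreted antibodies, was at 358 FPKM in high dose replicate 4 against 50.5 to 95.7. Napsa, an aspartic protease of alveolar type 2 cells, was at 201 FPKM in high dose replicate 4 against 156 to 163. Mgl2, a lectin of macrophages and dendritic cells, was at 12.3 FPKM in model replicate 2 against 7.68 to 7.94.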

How the results depend on the processing

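The count of members called lower, 4, was 3 to 6 without single libraries: 3 without model replicate 1 or 4 or any high dose library, and 6 without model replicate 2. It was 3 with the replicate block and 4 in the fit of all genes with no filter, where Ms4a3 (log2 fold change -0.58 ± 0.06) was called and Ms4a4b was not. Ms4a7 turned to -0.0251 with quantile normalization and -0.0173 with median centring, and ran from -0.23 to 0.33 without single libraries. Ctla4 ran from -0.042 to 0.22, Tnfrsf18 from -0.16 to 0.056 and Kit from -0.14 to 0.12. Over all genes, 845 were higher, against 518 with no filter on low values, 486 with the replicate block and 364 to 1178 without single libraries, and 616 were lower, against 329 to 970. Of the other family genes, 2 were higher, against 1 to 2 without single libraries, and 1 was lower, against 2 with a minimum mean of 5 FPKM and 1 to 2 without single libraries. The cause of these shifts was not tested. Same-numbered libraries did not deviate together (correlations of 0.15, 0.28, -0.068 and -0.092), so the numbers are not taken to pair them. The table holds no counts, so low genes such as Ms4a3 have no counting error attached.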
